A study of Homo sapiens with 2 samples.

Results

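The genes described here set the pace of the G1 phase of the cell cycle: the D-type cyclins CCND1, CCND2 and CCND3, the cyclin-dependent kinases CDK2, CDK4 and CDK6, and the kinase inhibitors CDKN1A, CDKN1B and CDKN2C. They were chosen by name, and all 9 have a row among the 19826 genes of the count table. The cells belong to MDA-MB-231, a long-established line from a triple-negative breast cancer. One group had been adapted to flat culture in high-glucose medium without metformin (0 mM, titled Wildtype) and the other to the same medium with 2 mM metformin (titled Metformin), each for 30 days. Both groups were then grown for 10 days as mammospheres, spheres that float because the plates hinder attachment. Metformin, a biguanide, is a drug against diabetes. Each dose had 1 library of single cells, so no difference between doses has a replicate check and no test was run.

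In G1, D-type cyclins bind CDK4 or CDK6, and these complexes start the phosphorylation of the retinoblastoma protein, which releases E2F factors that switch on genes for DNA replication. CDK2, bound to E-type and then A-type cyclins, completes this step and carries cells through S phase. Inhibitors of the INK4 family, such as the p18 protein of CDKN2C, bind CDK4 and CDK6 themselves, whereas those of the CIP/KIP family, such as p21 (CDKN1A) and p27 (CDKN1B), bind cyclin-kinase complexes and are best known for blocking CDK2. Much of the control of these proteins lies in their degradation and phosphorylation, which RNA counts do not show.

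The 0 mM library held 1000 cells with 4403045 counts in all and a median of 3386 per cell, and the 2 mM library held 991 cells with 3264343 counts and a median of 2509. The counts are treated as unique molecular identifiers (UMIs, tags that mark single captured transcripts), which the labels do not state. Levels are UMIs summed over a group of cells and scaled to the total of that group (CPM). Their 95% intervals cover counting error only. In each comparison a gene was called higher or lower when it had at least 50 UMIs over both groups, differed at least 1.5-fold and had an interval of its ratio that left out 1. Expression of the line's markers fitted its label: VIM, CD44, S100A4, LGALS1 and AXL were at 110 CPM or more in both libraries, and ESR1, PGR and CDH1 had at most 2 UMIs in each, while SPARC had 1 and 3 UMIs. Capture per transcript can differ between genes, so levels are compared for 1 gene at a time.

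In summed UMIs the G1 genes lay within 1.5-fold with and without metformin, except CCND2, which was nearly silent. CCND1, the cyclin most often amplified in breast cancer, stood at 492 CPM (472 to 513) without and at 470 CPM (447 to 494) with metformin. CCND3 had 264 CPM (249 to 280) and 278 CPM (260 to 297). CCND2 had 2 UMIs at 0 mM and 4 at 2 mM, near the 3 counts that correspond to 0.681 and 0.919 CPM, so no fold is given for it. The 2 measured cyclins thus lay within overlapping intervals at the 2 doses, with ratios of 2 mM over 0 mM of 0.955 (0.894 to 1.02) for CCND1 and 1.05 (0.963 to 1.15) for CCND3.

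Among the kinases, CDK4 stood at 166 CPM (154 to 178) without and 160 CPM (147 to 175) with metformin, which makes a ratio of 0.966 (0.862 to 1.08). CDK6, the other partner of the D-type cyclins, had 77.7 CPM (69.7 to 86.4) and 73.8 CPM (64.8 to 83.8), a ratio of 0.950 (0.803 to 1.12). CDK2 had 37.0 CPM (31.6 to 43.2) and 29.1 CPM (23.5 to 35.6), a ratio of 0.786 (0.604 to 1.02). The intervals of all 3 ratios included 1. Weighting each cell equally gave a lower ratio for CDK2, 0.597.

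Among the inhibitors, CDKN1A, a target of p53 that blocks CDK2, had 123 CPM (113 to 134) and 112 CPM (101 to 125), a ratio of 0.913 (0.798 to 1.04). CDKN2C, which binds CDK4 and CDK6, had 91.1 CPM (82.4 to 100) and 83.3 CPM (73.7 to 93.8), a ratio of 0.915 (0.781 to 1.07). CDKN1B had 43.8 CPM (37.9 to 50.5) and 32.5 CPM (26.6 to 39.3), and its ratio of 0.741 (0.579 to 0.944) was the only one of the 8 whose interval left out 1, though it stayed within 1.5-fold. In all, 0 of the 8 genes that passed the minimum were called at 2 mM against 0 mM, where 9.42% of 9941 genes tested were called higher and 4.68% lower. The median log2 ratio was −0.10 over these 8 genes and 0.04 over all genes tested. Of the 8 ratios, 7 lay below 1.

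**Figure D1:**
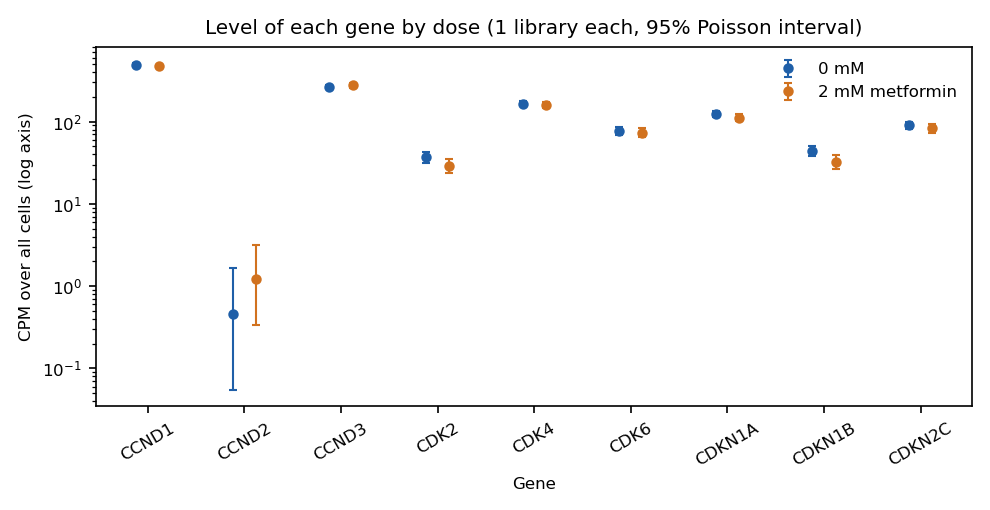
Level of each gene over all cells of the 0 mM (blue) and 2 mM metformin (orange) library, in CPM on a log axis, with 95% Poisson intervals that cover counting error. Apart from CCND2, which rests on 2 and 4 UMIs, each pair of points lies within 1.5-fold.

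The share of cells in which a gene was seen was compared after each cell had been thinned at random to 1000 UMIs, which left 944 cells at 0 mM and 800 at 2 mM and dropped 56 and 191 shallower ones. CCND1 was then seen in 35.5% of cells (32.4 to 38.6, exact binomial interval) at 0 mM and 33.4% (30.1 to 36.8) at 2 mM, and CCND3 in 25.1% (22.4 to 28.0) and 24.4% (21.4 to 27.5). CDK4 followed with 15.5% and 14.1%, CDKN1A with 10.7% and 9.62%, CDKN2C with 7.42% and 6.5%, and CDK6 with 6.57% and 6.12%. CDKN1B was seen in 3.81% and 2.5% of cells and CDK2 in 3.28% and 2.12%. CCND2 was seen in 0 cells of either library, which allows a share of up to 0.318% at 0 mM and 0.375% at 2 mM. For 0 of the 9 genes did the intervals of the 2 doses lie apart. Without thinning the shares were larger and lower at 2 mM for 8 of them (CCND1 64.7% and 52.5%), in libraries that differed in depth. All cells were of 1 line, so no cell type without these genes was at hand to gauge the background from free RNA.

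Within a library, the UMIs of each gene were spread unevenly over cells. The 5% of cells with the most CDKN2C UMIs held 47.1% of them at 0 mM and 57.7% at 2 mM, and for CDKN1A the shares were 43.9% and 52.3%. For CDK2 they were 50.3% and 65.3%, for CDKN1B 45.6% and 54.7%, and for CCND1 28.6% and 33.8%. A gene with few UMIs has a large share in its top cells by construction, so these shares alone do not show concentration. The deepest 5% of cells held 17.6% and 18.8% of all UMIs. In cells thinned to 1000 UMIs, the variance of CDK4 over its mean was 1.01 and 0.953, that of CDK2 1.03 and 0.980, and that of CDKN1B 1.02 and 0.976. These are close to the value of 1 of a pure counting process. The means were only 0.0339 and 0.0213 UMIs per cell for CDK2 and 0.0392 and 0.025 for CDKN1B. At such means the value can stay near 1 even where cells differ, so it does not show an even spread. CCND1 lay at 1.27 and 1.43, CDKN2C at 1.15 and 1.41, and CDKN1A at 1.37 and 1.13. Intervals of summed counts, which treat each UMI as a separate draw, are therefore too narrow.

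Within the D-type cyclins, CCND1 made up 65.0% (63.4 to 66.7) of the UMIs at 0 mM and 62.8% (60.8 to 64.7) at 2 mM. CDK6 made up 31.9% (29.1 to 34.8) and 31.5% (28.3 to 35.0) of those of CDK4 and CDK6 together. CDKN1A made up 73.7% (70.4 to 76.9) and 77.6% (73.6 to 81.3) of those of CDKN1A and CDKN1B. These shares do not depend on the scaling of the libraries, and the intervals of the doses overlapped in all 3 families.

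Cycling cells were then compared with the rest. Each thinned cell with at least 3 UMIs of a list of G2/M genes was put in a G2/M class, whatever its count of S-phase genes. Cells with at least 3 UMIs of a list of S-phase genes and fewer than 3 of the G2/M list formed an S class. Those with fewer than 3 of each formed a few-cycle class. The G2/M class held a mean of 3.61 S-list UMIs per cell at 0 mM and 3.49 at 2 mM, so it is not specific to G2/M cells. None of the 9 genes, nor of the pathway genes named further on, is in these lists. Cycling cells, of the S or G2/M class, numbered 583 of 944 (61.8%) at 0 mM and 424 of 800 (53.0%) at 2 mM, and few-cycle cells 361 and 376. The classes are ranges of a count and not separate cell types: in 34.0% and 33.3% of cells the larger of the counts was 2 or 3, next to the threshold. Cycling cells were deeper than few-cycle cells, with medians of 3747 against 3459 UMIs at 0 mM and 3362 against 2848.5 at 2 mM.

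CDK2 was higher in cycling cells of both libraries, CDKN2C was higher at 0 mM, and CCND3 was lower in both by less than the 1.5-fold limit. CDK2 had 25.0 CPM in few-cycle and 42.5 CPM in cycling cells at 0 mM, and 17.6 and 39.2 CPM at 2 mM. The ratios were 1.70 (1.17 to 2.53) and 2.23 (1.37 to 3.73). For CDKN2C the levels at 0 mM were 60.7 and 107 CPM and their ratio was 1.77 (1.39 to 2.26), while at 2 mM the levels were 81.9 and 82.2 CPM and their ratio was 1.0 (0.778 to 1.30). CCND3 had 330 and 231 CPM at 0 mM and 335 and 233 CPM at 2 mM, with ratios of 0.700 (0.622 to 0.789) and 0.696 (0.608 to 0.798). Called higher were 2 of 8 genes at 0 mM, where 9.15% of all genes tested were called higher and 5.15% lower, and 1 of 8 at 2 mM, where 8.57% were called higher and 5.84% lower. The call of CDKN2C at 0 mM ended when barcodes 1 base apart were merged (1.28), when cells were thinned to 2000 UMIs (1.32) or when only thinned UMIs were summed (1.39), and when cells were weighted equally (1.42). The call of CDK2 at 0 mM ended with classes at 2 UMIs (1.54, 0.937 to 2.67) and when cells were thinned to 2000 UMIs (1.74, 0.890 to 3.88). Over thinned UMIs alone CDK2 missed the minimum in both libraries, with ratios of 2.21 (0.930 to 6.06) and 1.27 (0.435 to 3.92), and it was not called in either library with a minimum of 50 CPM.

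The other genes lay within 1.5-fold between these classes. CCND1 had ratios of cycling over few-cycle of 0.950 (0.869 to 1.04) at 0 mM and 1.18 (1.06 to 1.32) at 2 mM, so that its log2 ratio was higher by 0.32 (0.12 to 0.52, counting error only) at 2 mM. CDK4 was at 1.20 (1.02 to 1.41) and 1.32 (1.10 to 1.59), CDK6 at 1.3 (0.987 to 1.60) and 1.16 (0.882 to 1.53), CDKN1A at 1.13 (0.935 to 1.36) and 1.42 (1.14 to 1.79), and CDKN1B at 0.893 (0.660 to 1.22) and 0.944 (0.620 to 1.45). The log2 ratio of CDKN2C was lower at 2 mM than at 0 mM by a difference of −0.82 (−1.31 to −0.32, counting error only). Its shares of thinned cells did not show this difference. They were 6.09% of few-cycle and 8.23% of cycling cells at 0 mM, and 5.05% and 7.78% at 2 mM, with overlapping intervals. In the share of D-type cyclin UMIs, CCND1 made up 60.6% (57.8 to 63.3) in few-cycle and 67.7% (65.6 to 69.7) in cycling cells at 0 mM, and 55.6% (52.4 to 58.7) and 68.0% (65.5 to 70.5) at 2 mM, with intervals apart in both libraries. Shares of thinned cells with a CDK4 UMI went against its CPM at 0 mM (16.9% of few-cycle and 14.6% of cycling cells). So did those of CCND1 (34.6% and 36.0%) and CDKN1A (11.4% and 10.3%) at 0 mM and of CDK6 (6.65% and 5.66%) at 2 mM. CDK2 was seen in 1.94% and 4.12% of cells at 0 mM and 1.86% and 2.36% at 2 mM, with overlapping intervals. No order is read from these shares.

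The G2/M class made up most of the cycling cells and gave similar values. CDK2 in G2/M-class over few-cycle cells was at 1.66 (1.14 to 2.49) at 0 mM and 2.39 (1.47 to 4.02) at 2 mM. CDKN2C was at 1.84 (1.45 to 2.36) and 1.09 (0.840 to 1.41), and CDKN1A at 1.12 (0.928 to 1.36) and 1.54 (1.22 to 1.93). Called higher were 2 of 8 genes at 0 mM (9.45% of all genes higher, 5.57% lower) and 2 of 8 at 2 mM (8.74% and 6.28%). The S class was small, with 64 cells at 0 mM and 58 at 2 mM. CCND1 was at 730 CPM in it at 0 mM and 626 CPM at 2 mM, which gave ratios over few-cycle cells of 1.43 (1.21 to 1.69) and 1.48 (1.22 to 1.79). Called there were CDK2, higher at 0 mM with 2.12 (1.04 to 4.09; 1 of 8 genes, against 5.75% higher and 3.68% lower of all genes), and at 2 mM CCND3, lower with 0.645 (0.467 to 0.873), and CDKN2C, lower with 0.394 (0.154 to 0.839) from 7 UMIs (2 of 6 genes, against 5.38% higher and 4.16% lower). These 3 values turned to the other side of 1 in other thinnings: CDK2 to 0.797 in cells thinned to 2000 UMIs, and CCND3 to 1.01 and CDKN2C to 1.24 in a second random thinning.

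Between doses inside a class, 0 of 8 genes were called in few-cycle cells (8.70% of all genes higher, 4.56% lower), 0 of 3 in S-class cells (9.36% and 8.12%) and 0 of 8 in G2/M-class cells (7.76% and 5.21%). In few-cycle cells CCND1 went from 510 to 422 CPM with metformin, a ratio of 0.827 (0.740 to 0.924), while in G2/M-class cells it had 461 and 482 CPM, a ratio of 1.04 (0.953 to 1.14). CDKN2C went from 60.7 to 81.9 CPM in few-cycle cells (1.35, 1.01 to 1.81) and from 112 to 89.0 CPM in G2/M-class cells (0.797, 0.648 to 0.978). CDKN1B went from 47.2 to 32.1 CPM in few-cycle cells (0.681, 0.453 to 1.01). The count of 0 in few-cycle cells depends on the settings: CDKN1B was called lower with TMM factors (0.657), with barcodes 1 base apart merged (0.591), without the 5% deepest barcodes (0.543), in a second random thinning (0.569) and under 3 other alternatives, and CDKN1A, CDK2 or CDKN2C were called under some.

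Binning cells by the number of cycle UMIs among 1000, a division chosen after the class values had been seen, gave these levels. CCND3 went along the S-list count at 0 mM from 306 CPM in cells with 0 S UMIs through 303 and 215 to 189 CPM in cells with 6 or more, and at 2 mM from 355 through 286 and 195 to 204 CPM. CDK2 went over the same bins from 18.5 through 27.9 and 40.9 to 74.1 CPM at 0 mM and from 12 through 24.4 and 35.2 to 71.4 CPM at 2 mM. For CDK4 the step lay in the last bin, at 249 CPM after 152, 134 and 172 CPM at 0 mM, and at 305 CPM after 122, 136 and 152 CPM at 2 mM. CDK2 and CDK4 were thus highest in the cells with the most S-phase transcripts in both libraries, and CCND3 was lower there than in cells with 0 S UMIs.

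With 6 or more S UMIs against 0, CDK2 (ratio 4.01, 2.32 to 7.25), CDK4 (1.64, 1.31 to 2.05) and CDKN2C (1.92, 1.38 to 2.67) were called higher and CCND3 (0.616, 0.50 to 0.756) lower at 0 mM, 4 of 8 genes, where 16.6% of all genes were called higher and 9.11% lower. At 2 mM, CDK4 (2.49, 1.92 to 3.24) and CDKN1A (1.73, 1.26 to 2.39) were called higher and CCND3 (0.575, 0.452 to 0.725) lower, 3 of 6 genes, against 14.9% and 10.1%. CDK2 had a ratio of 5.96 there but missed the minimum of UMIs. CCND1 was not called, with 0.825 (0.715 to 0.950) at 0 mM and 0.789 (0.655 to 0.947) at 2 mM. These ratios lay on the other side of 1 from those of CCND1 in the S class, which leaves out cells with 3 or more G2/M UMIs.

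Along the G2/M-list count, CCND3 fell at 0 mM from 323 CPM in cells with 0 to 161 CPM in cells with 11 or more (ratio 0.499, 0.397 to 0.628), and at 2 mM from 322 to 181 CPM (0.562, 0.428 to 0.735). CDKN2C was at 54.2 and 130 CPM at 0 mM (2.39, 1.55 to 3.83) and at 76.9 and 138 CPM at 2 mM (1.79, 1.17 to 2.81). CDKN1A had 119 and 142 CPM at 0 mM (1.19, 0.870 to 1.66), and 67.3 and 192 CPM at 2 mM (2.85, 1.86 to 4.50). CDK2 had 36.9, 26.1, 30.4, 51.8 and 49.5 CPM over the 5 bins at 0 mM. Its ratio of the last bin over the first, 1.34 (0.761 to 2.48), was not called. At 2 mM CDK2 rose over the same bins from 12 through 19.9, 24 and 48.7 to 63.4 CPM. The ratio there was 5.28 (2.05 to 17.3), from 34 and 5 UMIs, which missed the minimum. CDKN1A spanned a wider range along this count at 2 mM, a difference that was not tested. Called were 1 gene higher and 1 lower of 8 at 0 mM (17.5% and 9.98% of all genes), and at 2 mM, where CDK4 (1.80, 1.28 to 2.56) was also called higher, 3 higher and 1 lower of 6 (16.2% and 9.37%).

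**Figure D2:**
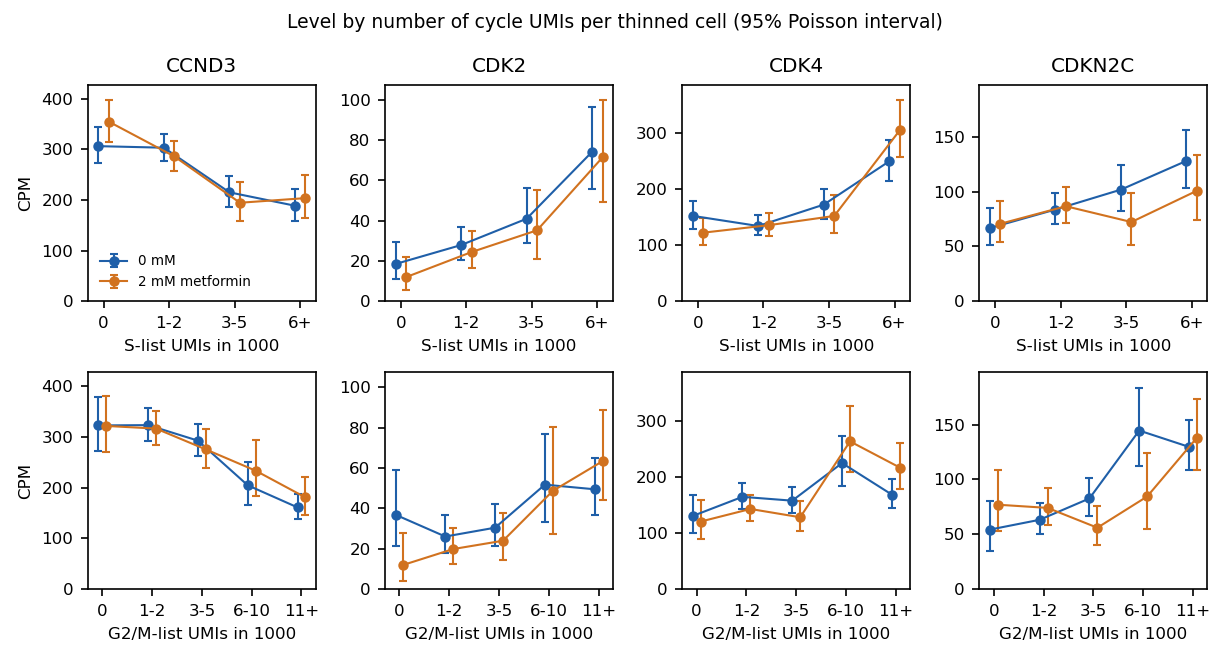
CPM of CCND3, CDK2, CDK4 and CDKN2C in cells binned by their UMIs of the S list (top) and of the G2/M list (bottom) after thinning to 1000 UMIs, for the 0 mM (blue) and 2 mM metformin (orange) library, with 95% Poisson intervals. CCND3 is lower in the last bin than in the first along both counts, CDK2 is higher along the S count (18.5 to 74.1 CPM at 0 mM), and CDK4 is highest in the last S bin at 249 and 305 CPM.

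The cells of both libraries were clustered together without these 9 genes among the variable genes, which gave 4 clusters. Cluster 0 was G2/M-like (194 cells at 0 mM and 199 at 2 mM; TOP2A, UBE2C and MKI67 among its leading genes) and cluster 1 interferon-like (332 and 196 cells; RSAD2, CXCL10 and IFIT2). Cluster 2, led by VIPR1, FBXO32 and ST3GAL5, held 162 and 478 cells, and cluster 3, led by ANKRD1, DKK1 and CYR61, held 312 and 118 cells; neither was named. In cluster 3 the median depth, 1986 and 886.5 UMIs, was lower than in the libraries as a whole, and MTRNR2L genes were also among its leading genes.

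Over the 8 groups of cluster and dose, CCND1 ranged from 318 CPM in cluster 2 at 0 mM to 743 CPM in cluster 3 at 2 mM. CCND3 was at 455 and 499 CPM in the interferon-like cluster and between 160 and 240 CPM in the other groups, with no overlap of intervals. CDK2 ranged from 11 CPM in cluster 2 at 0 mM to 59.7 CPM in the G2/M-like cluster at 2 mM, next to 57 CPM there at 0 mM, from which it did not differ beyond the intervals. CDK4 ranged from 98.6 CPM in the interferon-like cluster at 2 mM to 227 CPM in the G2/M-like cluster at 2 mM, and CDK6 from 50.1 CPM in cluster 2 to 94.8 CPM in the G2/M-like cluster, both at 0 mM. CDKN1A had 135 and 158 CPM in the G2/M-like and 161 and 164 CPM in the interferon-like cluster, 4 values with overlapping intervals, and between 61.2 and 78.9 CPM in clusters 2 and 3. CDKN2C spanned 18.6 CPM in cluster 3 to 164 CPM in the interferon-like cluster, both at 2 mM. CDKN1B lay between 29.0 and 53.2 CPM in all groups but cluster 3 at 2 mM, where 1 UMI was counted. Cluster 0 also had the S-phase gene TYMS among its markers, so it is not specific to G2/M cells. A finer clustering (resolution 1.0) gave separate S-like and G2/M-like clusters. There CDK4 had 233 CPM in S-like against 140 CPM in G2/M-like cells at 0 mM. At 2 mM it had 281 against 160 CPM, with intervals apart at both doses. CDK2 had 75.2 against 38.6 CPM at 0 mM (51 and 21 UMIs) and 64.1 against 31.9 CPM at 2 mM (36 and 9 UMIs), with overlapping intervals. This overlap does not show equal levels, and no ratio was computed for these 2 clusters.

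**Figure D3:**
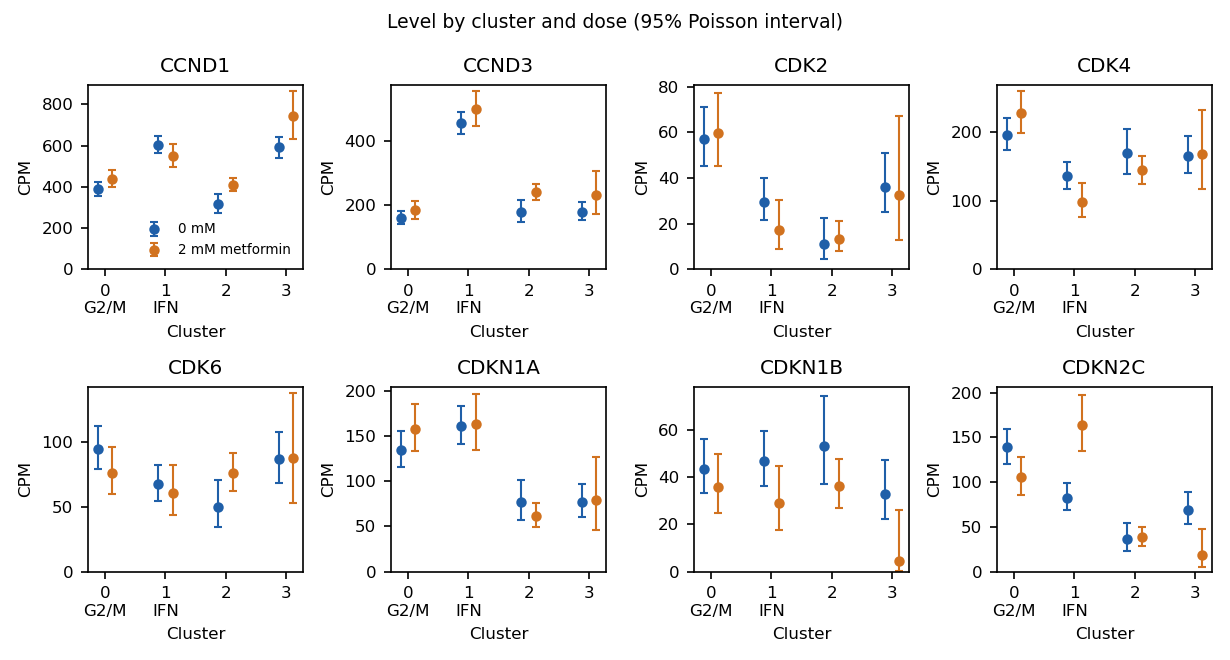
CPM of 8 genes in the 4 clusters (0 is G2/M-like, 1 is interferon-like (IFN), 2 and 3 are unnamed) of the 0 mM (blue) and 2 mM metformin (orange) library, with 95% Poisson intervals. CCND3 stands apart in cluster 1 at 455 and 499 CPM, and CDKN1A is higher in clusters 0 and 1 than in clusters 2 and 3.

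Interferon-like cells, the cells of cluster 1, were compared with all other cells of the same library after the cluster levels had been seen. The cluster was named by genes induced by interferon signalling. In the finer clustering, 59.6% of its cells at 0 mM fell in a part that did not meet the rule for that name. CCND3 had 455 CPM in them against 170 CPM in other cells at 0 mM and 499 against 219 CPM at 2 mM, ratios of 2.67 (2.37 to 3.0) and 2.28 (1.99 to 2.61). CDKN1A had 161 against 104 CPM and 164 against 98.6 CPM, ratios of 1.55 (1.30 to 1.84) and 1.66 (1.32 to 2.08). Both genes were higher in each library. CDK4 was lower at 2 mM, with 98.6 against 177 CPM (0.558, 0.426 to 0.722), and had 136 against 181 CPM at 0 mM (0.752, 0.635 to 0.887). CDKN2C was higher at 2 mM (2.65, 2.07 to 3.4) and had a ratio of 0.868 (0.695 to 1.08) at 0 mM, and CDK2 was lower at 2 mM from 12 UMIs (0.540, 0.268 to 0.994), with 0.729 (0.502 to 1.04) at 0 mM.

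Called were thus 2 genes higher of 8 at 0 mM, where 11.1% of all genes were called higher and 14% lower, and 3 higher and 2 lower of 8 at 2 mM, where 8.65% were called higher and 12.6% lower. CCND3 was also called higher in few-cycle cells alone (2.38 at 0 mM and 2.04 at 2 mM) and in cycling cells alone (2.83 and 2.37), where 10.8% and 8.66% of all genes were called higher in few-cycle cells at 0 and 2 mM, and 11.3% and 8.11% in cycling cells. CDKN1A was called higher in few-cycle cells at both doses (2.26 and 2.96). With a finer clustering (resolution 1.0 in place of 0.5), CCND3 at 0 mM fell to a ratio of 1.5 and was not called, CDK2 at 2 mM turned to 1.51, and CDKN2C was called higher at both doses (3.30 and 4.81). The call of CDK4 at 2 mM ended when cells were weighted equally (0.789).

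Promoters are shown for CDKN1A and CDK4, which lay on opposite sides of the other cells in the interferon-like cluster in both libraries. Each run is 300 bases, from 250 before to 50 after the gene's start, 5′ to 3′ on the gene's strand, taken from RefSeq on GRCh38.p14, at chr6:36678464-36678763 (plus strand) for CDKN1A and chr12:57752261-57752560 (minus strand) for CDK4. Capitals mark GGGCGG, the GC box bound by SP-family factors, on either strand; overlapping matches run together. The counts themselves were made on hg19.
CDKN1A: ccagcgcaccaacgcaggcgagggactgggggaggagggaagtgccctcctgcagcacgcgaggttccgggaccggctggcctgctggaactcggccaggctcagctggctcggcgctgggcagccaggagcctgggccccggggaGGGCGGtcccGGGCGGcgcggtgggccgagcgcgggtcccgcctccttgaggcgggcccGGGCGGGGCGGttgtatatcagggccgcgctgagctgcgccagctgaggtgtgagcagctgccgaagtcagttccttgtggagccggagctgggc
CDK4: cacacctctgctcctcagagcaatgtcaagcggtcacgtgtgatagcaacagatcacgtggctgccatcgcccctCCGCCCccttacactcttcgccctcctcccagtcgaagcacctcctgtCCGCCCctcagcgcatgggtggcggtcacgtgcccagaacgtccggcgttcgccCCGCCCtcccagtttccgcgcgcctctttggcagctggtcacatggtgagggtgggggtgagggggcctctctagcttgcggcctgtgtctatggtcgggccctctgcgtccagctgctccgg
CDKN1A held 4 such matches and CDK4 held 3. Windows were found for 6 of the 9 genes, 11 windows in all, and GGGCGG occurred in 8 of them, at least once for each of the 6 genes, and in 45% of all 35116 promoter windows. AANNGAAA, the core that interferon regulatory factors bind, was in 0 of the 11 windows and in 22.8% of all. The E2F-site forms TTTCGCGC and TTTGGCGC were in 0 of the 11 windows and in 0.515% and 0.652% of all. CCAAT was in 4 of the 11, those of CCND3, CDKN1B and CDKN2C, and in 34.6% of all. All motifs were searched on both strands, and a match or its lack in these windows is a description only.

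The few-cycle class held more interferon-list RNA than the cycling class, so the cycle comparison was repeated inside and outside the interferon-like cluster. Summed over all 12 markers, each with at least 12 UMIs in each library, the level was 7232 CPM in few-cycle and 4180 CPM in cycling cells at 0 mM, and 5864 and 3757 CPM at 2 mM. Cycling cells made up 41.9% of thinned cells in the interferon-like cluster at 0 mM and 36.6% at 2 mM. In the G2/M-like cluster, which lies outside it, they made up 99.5% and 100%. The clustering thus divided cells partly by cycle genes, so the calls inside and outside cannot be set against each other. Outside it, CCND3 had 187 CPM in few-cycle and 166 CPM in cycling cells at 0 mM (0.885, 0.720 to 1.09) and 251 and 198 CPM at 2 mM (0.790, 0.663 to 0.943). Inside it, CCND3 had 445 and 469 CPM (1.05, 0.901 to 1.23) and 511 and 469 CPM (0.918, 0.723 to 1.16). The ratios of CCND3 were thus closer to 1 within each set of cells than over all cells, where they were 0.700 and 0.696.

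Outside the interferon-like cluster, 3 genes were higher in cycling than in few-cycle cells of both libraries: CDK2, CDKN1A and CDKN2C. CDK2 had 18.3 CPM in few-cycle and 46.3 CPM in cycling cells at 0 mM and 18.1 and 41.9 CPM at 2 mM, ratios of 2.54 (1.39 to 5.06) and 2.31 (1.32 to 4.27). CDKN1A had 67.0 and 115 CPM (1.72, 1.2 to 2.43) and 55.6 and 124 CPM (2.24, 1.63 to 3.13). CDKN2C had 42.6 and 111 CPM (2.61, 1.76 to 4.01) and 44.2 and 74.3 CPM (1.68, 1.16 to 2.48). That is 3 of 8 genes called higher at each dose, where 11% of all genes were called higher and 4.64% lower at 0 mM, and 9.72% and 6.16% at 2 mM. Inside the cluster 0 of 7 genes that passed the minimum were called at 0 mM (2.8% higher and 1.43% lower of all genes), and at 2 mM 1 of 5, CDK4, was lower with 0.534 (0.272 to 0.987; 4.58% and 3.05%), which turned to 1.44 with barcodes 1 base apart merged. Summing only thinned UMIs left 0 genes called outside the cluster at 0 mM, with CDK2 at 1.30, CDKN1A at 1.15 and CDKN2C at 1.78. At resolution 1.0 CDKN1A at 0 mM was at 1.04 and not called.

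**Figure D4:**
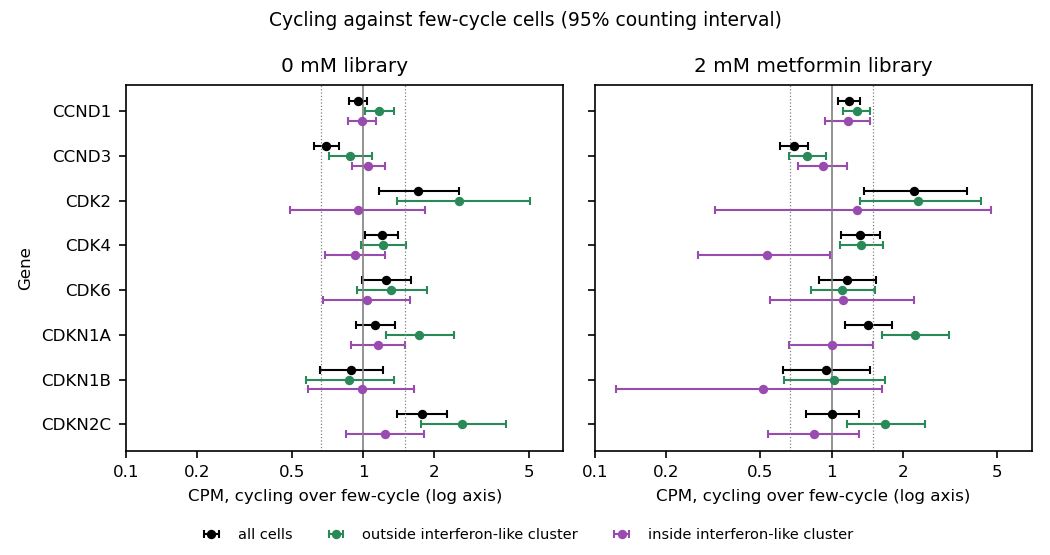
Ratio of CPM in cycling over few-cycle cells on a log axis for 8 genes, in the 0 mM library (left) and the 2 mM metformin library (right), over all cells (black), outside (green) and inside (purple) the interferon-like cluster, with 95% counting intervals; dotted lines mark 1.5-fold. CDK2, CDKN1A and CDKN2C lie past 1.5 outside the cluster at both doses, and the CCND3 ratios of 0.700 and 0.696 over all cells are nearer 1 inside and outside it. The cells outside include the G2/M-like cluster.

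The inhibitor gene CDKN2C showed opposite differences between doses in the 2 sets of cells, although its level over all cells was close. In interferon-like cells it went from 82.7 CPM (68.5 to 98.9) without to 164 CPM (135 to 197) with metformin, a ratio of 1.98 (1.52 to 2.58). In the other cells it had 95.2 CPM (84.4 to 107) and 61.7 CPM (52.5 to 72.1), a ratio of 0.649 (0.531 to 0.791). It was the only gene of 8 called in either set, where 7.13% of all genes were called higher and 5.67% lower in interferon-like cells, and 10.2% and 5.14% in the others. Split further by cycle class, CDKN2C had 75.1 and 160 CPM in few-cycle interferon-like cells (2.13, 1.49 to 3.06), 93.1 and 135 CPM in cycling ones (1.45, 0.912 to 2.27), 42.6 and 44.2 CPM in few-cycle other cells (1.04, 0.623 to 1.75) and 111 and 74.3 CPM in cycling other cells (0.667, 0.531 to 0.834).

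The interferon-like cluster did not hold the same mix of cells in the 2 libraries, and the CDKN2C level differed among its parts. At resolution 1.0, 59.6% of its 332 cells at 0 mM fell in subcluster 1, with NOV and DDX60 among its leading genes, and 28.6% in subcluster 5, led by RSAD2, IFNL1 and CH25H, against 14.8% and 56.1% of its 196 cells at 2 mM. Subcluster 1 was not named, since IFIT3 was the only 1 of the 12 interferon markers among its 50 leading genes. CDKN2C was at 47.4 CPM in subcluster 1 at 0 mM, and in subcluster 5 it was at 185 CPM (146 to 232) at 0 mM and 263 CPM (215 to 318) at 2 mM. CCND3 was at 510 CPM in subcluster 1 at 0 mM, and at 395 CPM at 0 mM and 548 CPM at 2 mM in subcluster 5. With the interferon-like cells defined at resolution 1.0, as subclusters 4 and 5, the ratio between doses was 1.10 (0.855 to 1.40) inside and 0.751 (0.609 to 0.925) outside, and CDKN2C was called in neither. CDK4, with a ratio of 0.727 (0.543 to 0.962) inside at resolution 0.5, was then called lower (0.639, 0.440 to 0.918). In the other cells at resolution 0.5, the call also ended without the 5% deepest barcodes (0.683).

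**Figure D5:**
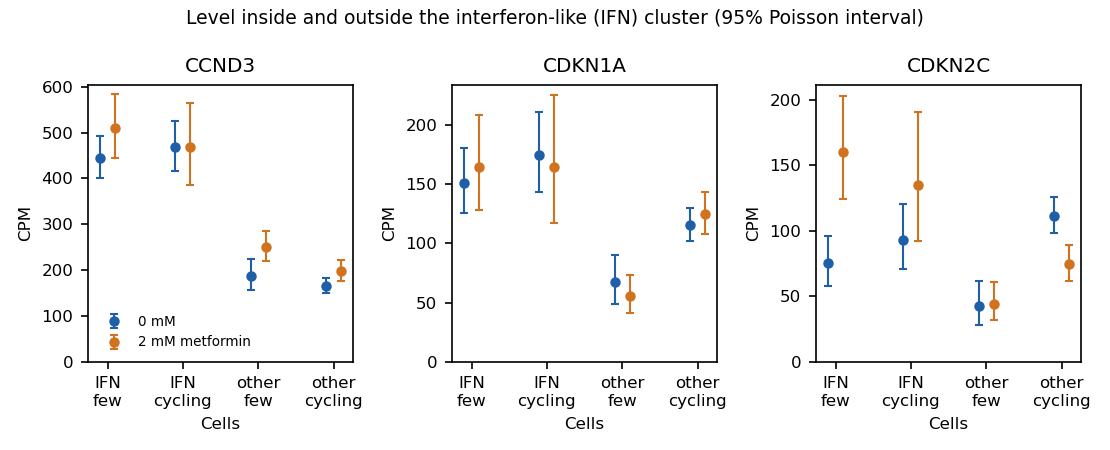
CPM of CCND3, CDKN1A and CDKN2C in few-cycle and cycling cells inside the interferon-like (IFN) cluster and in other cells, for the 0 mM (blue) and 2 mM metformin (orange) library, with 95% Poisson intervals. CCND3 is at 445 CPM or more in all 4 interferon-like groups and at most 251 CPM in the others; CDKN2C differs between doses in few-cycle interferon-like cells (75.1 and 160 CPM).

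Genes around these regulators were described through 6 lists with 59 genes, of which 55 had a row; the other 4, CKS1B, CDKN2A and CDKN2B among them, are not analysed here. Between doses over all cells, 4 of the 49 list genes that passed the minimum were called higher and 3 lower, against 9.42% and 4.68% of all genes, and the lists' median log2 ratio was −0.08 beside 0.04 over all genes. These counts are near the shares over all genes. Of 5 measured genes of the list of CDK2 cyclins and activators, which also holds CDK1, 2 were lower at 2 mM, 1 was higher, and CCNE2 and CKS2 were not called. Lower were cyclin A2 (CCNA2) at 73.1 and 39.2 CPM (0.536), the mitotic kinase CDK1 at 163 and 101 CPM (0.623), and the kinase-associated phosphatase CDKN3 at 139 and 76.9 CPM (0.555). Higher were cyclin E1 (CCNE1) at 5.91 and 13.8 CPM (2.33), FZR1, which activates the anaphase-promoting complex in G1, at 5.0 and 13.5 CPM (2.70), and 2 of 13 measured p53 targets, ZMAT3 (1.93) and AEN (1.60). CDKN1A itself was at 0.913 in this comparison. The share of cycling cells was 61.8% and 53.0% in these libraries, and its part in these differences was not tested.

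Among the other inhibitors and brakes, CDKN1C had 18.9 CPM without and 23.6 CPM with metformin, CDKN2D, an INK4 inhibitor like CDKN2C, 62.7 and 48.4 CPM, CDK2AP2 150 and 157 CPM, and CCNDBP1 88.8 and 91.0 CPM. CDK2AP1 had 5 and 12 UMIs. All of these but CDKN3 lay within 1.5-fold between doses or missed the minimum. In cycling over few-cycle cells, CDKN2D was higher in both libraries (2.05, 1.52 to 2.81, at 0 mM and 2.00, 1.38 to 2.95, at 2 mM), as was CDKN3 (8.68 and 15.2), and CDKN1C was lower at 0 mM (0.469, 0.296 to 0.740).

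In the same comparison all 4 measured genes of the list of CDK2 cyclins and activators, which also holds the kinase CDK1, were higher in cycling cells. Like the genes used for sorting, these rise in dividing cells, so their direction was largely set by the sorting. They were CCNE2 (6.5 and, from 2 UMIs in few-cycle cells, 18.7 with an interval of 4.94 to 159), CCNA2 (14.5 and 13.7), CDK1 (10.6 and 12.9) and CKS2 (3.66 and 4.09). The corresponding ratios of CDK2 were 1.70 and 2.23. Of the retinoblastoma, E2F and DREAM genes, E2F1 (3.47), TFDP1 (1.51) and LIN9 (2.41) were higher at 0 mM, 3 of 11 measured, and RBL2 (0.507) was lower at 2 mM, 1 of 7. The CDK-activating kinase, CDK7, CCNH and MNAT1, had 0 of 3 called in either library; MNAT1, its assembly factor, had 82.7 CPM without and 70.5 CPM with metformin over all cells. Of 9 measured p53 targets, the apoptosis genes BBC3 (0.530 and 0.423) and FAS (0.597 and 0.612) were lower in cycling cells of both libraries, and GADD45A (1.55) and AEN (2.95) were higher at 2 mM. Over all lists 9 genes were called higher and 3 lower of 40 at 0 mM, and 8 and 3 of 35 at 2 mM, where 9.15% and 5.15% of all genes were called higher and lower at 0 mM, and 8.57% and 5.84% at 2 mM. The genes called higher include CCNE2, CCNA2, CDK1 and CKS2 in both libraries, so these counts are not read as a result about the lists. The part of the sorting in the other calls was not tested.

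For each of the 8 measured genes, the 3 genes with the most similar pattern over the 8 groups of cluster and dose were found among 2863 genes by Pearson's r of log2 CPM. As these groups share 2 libraries and differ in depth, r is a description. The genes like CCND3 included NUB1 (0.98) and ITGA2 (0.98), and CDKN1A was most like the interferon lambda gene IFNL1 (0.94), RFK (0.93) and EIF5 (0.92). CDK2 was most like ATL3 (0.99), SF3A3 (0.98) and BOLA3 (0.96), and CDK4 most like FAM49B, RPA1 and C14orf2 (0.95 to 0.96). CDK6 was most like NUDCD1, PPP4R2 and KRR1 (0.96 for the first), CDKN2C most like GSTO1, PDIA6 and RPN1 (0.97 for the first), CCND1 most like OGFRL1, CHCHD10 and JUN (0.93 for the first) and CDKN1B most like GUSB, MRPS6 and C12orf57 (0.95 for the first).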

How the data were processed

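The authors deposited whole counts per gene and cell barcode for 1 library per dose, with 1000 barcodes each. hg19, STAR 2.5.0a and bcl2fastq appear, without a role, in the submitters' processing notes; for annotation, strand use, tag collapsing and barcode choice the sources used here give nothing, so counts of genes that overlap others or have close copies are uncertain. No barcode was shared between libraries. Cells needed 500 counts and 300 genes. No doublet caller was run; barcodes 1 base apart were merged (931 and 883 cells) and the 5% deepest left out as alternatives. Sums were scaled to CPM. Ratios carry exact conditional Clopper-Pearson 95% intervals, levels exact Poisson and shares exact binomial ones, for counting error only (scipy 1.17.1). The interval of a difference between log2 ratios was computed from the counts. The calculations were tested on simulated Poisson counts. Cells were clustered with scanpy 1.11.5 (2000 variable genes, 20 components, 15 neighbours, Leiden); a cluster was named with at least 3 markers of a type among its 50 leading genes. TMM factors came from edgeR 4.0.16. All 9 genes, called list genes, the other inhibitors and the 3 most alike genes are named, except 1 that is not reported here. The genes, lists and alternatives were chosen with earlier results of these data known; the comparisons by interferon-like cells, the count bins and the second thinning were added after seeing the data.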

Additional observations from a re-analysis of the deposited data

Results flagged for a closer look

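CDKN2C had a ratio of 2 mM over 0 mM of 1.98 (1.52 to 2.58) in interferon-like cells and of 0.649 (0.531 to 0.791) in the other cells. It stood out because the 2 sets of cells moved in opposite directions; the difference was not tested, since each dose had 1 library. The call in interferon-like cells ended at resolution 1.0 (1.10), and that in the other cells ended there too (0.751) and without the 5% deepest barcodes (0.683).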

How the results depend on the processing

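No paired analysis was possible because each dose had 1 library. Over 331 recomputed counts of genes called, 237 stayed within 1.5 times the count reported and 94 did not. Another 2138 recomputed values were ratios, share differences and counts for the bins. Of these, 8 ratios of called genes turned to the other side of 1, and 247 others moved by more than the counting interval or, for counts, by more than 1.5 times. Ratios of genes not called, and shares, were not checked for such turns. Thinned to 500 UMIs, the share differences between doses of CCND1 (−2.11 to 1.18 points), CCND3 (−0.73 to 2.13) and CDK4 (−1.34 to 1.77) changed sign, with intervals that included 0. The cause of each change was not tested. The limit on fold moves counts by its construction, and CDK2 had 4 to 109 UMIs per class and library, so its intervals are wide. Reversed values were those of the S class and of small groups. Against few-cycle cells, CDK2 in S-class cells at 0 mM went to 0.797 when thinned to 2000 UMIs, CCND3 at 2 mM to 1.01 in the second thinning, and CDKN2C at 2 mM to 1.26 with classes at 2 or more UMIs, to 1.32 and 1.31 when thinned to 500 and 2000 UMIs and to 1.24 in the second thinning. CDK2 in interferon-like against other cells at 2 mM went to 1.51 at resolution 1.0, and CDK4 in cycling against few-cycle interferon-like cells at 2 mM to 1.44 with barcodes merged.

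The counts that moved follow as genes called. For 2 mM against 0 mM over all cells (0 reported) the count was 1 at a lower fold limit than 1.5, and in G2/M-class cells (0) also 1 at the lower fold limit. In few-cycle cells (0) it was 1 with at most 10% mitochondrial UMIs, without the 5% deepest barcodes, with merged barcodes, with TMM factors, without the 20 genes with the most UMIs, at the lower fold limit, with few-cycle cells of at most 1 UMI, in the second thinning and over thinned UMIs, and 2 with classes at 2 or at 5 UMIs. In S-class cells (0) it was 1 with at most 10% mitochondrial UMIs, with no minimum and thinned to 2000 UMIs, and 2 with classes at 2 UMIs.

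For cycling against few-cycle cells at 0 mM (2) it was 1 with cells weighted equally, a minimum of 50 CPM or classes at 2 UMIs, and 0 at 2-fold or over thinned UMIs. At 2 mM (1) it was 3 without the deepest barcodes, with merged barcodes or with few-cycle cells of at most 1 UMI, 0 with a minimum of 50 CPM, 2 with classes at 2 UMIs or thinned to 2000, and 4 at the lower fold limit, with classes at 5 UMIs or thinned to 500. For the S class against few-cycle cells at 0 mM (1) it was 0 with at most 10% mitochondrial UMIs, without the deepest barcodes, with merged barcodes, with few-cycle cells of at most 1 UMI, in the second thinning and over thinned UMIs, 2 at the lower fold limit or with classes at 5 UMIs, and 3 thinned to 500. At 2 mM (2) it was 0 with at most 10% mitochondrial UMIs, with classes at 2 UMIs, thinned to 2000, in the second thinning and over thinned UMIs, and 1 without the deepest barcodes, with cells weighted equally, at 2-fold, with classes at 5 UMIs and with few-cycle cells of at most 1 UMI. For the G2/M class at 0 mM (2) it was 1 with cells weighted equally, with a minimum of 50 CPM or classes at 2 UMIs, 4 at the lower fold limit, and 0 at 2-fold or over thinned UMIs. At 2 mM (2) it was 1 with at most 10% mitochondrial UMIs, without the 20 genes with the most UMIs, with a minimum of 50 CPM, at 2-fold, in the second thinning and over thinned UMIs, and 4 at the lower fold limit, with classes at 5 UMIs or thinned to 500.

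For interferon-like against other cells at 0 mM (2) it was 4 at the lower fold limit and 1 at 2-fold, and at 2 mM (5) 3 with cells weighted equally and 2 at 2-fold. Outside that cluster, cycling against few-cycle cells at 0 mM (3) gave 5 with classes at 2 UMIs or few-cycle cells of at most 1 UMI, and 0 over thinned UMIs, and at 2 mM (3) 6 at the lower fold limit. Inside it at 0 mM (0) the count was 1 thinned to 500 and 2 thinned to 2000 or at resolution 1.0, and at 2 mM (1) it was 0 with merged barcodes, at 2-fold, with classes at 2 UMIs, with few-cycle cells of at most 1 UMI, over thinned UMIs and at resolution 1.0, and 2 with classes at 5 UMIs. For 2 mM against 0 mM in interferon-like cells (1) it was 2 with a minimum of 1000 UMIs or at the lower fold limit and 0 at 2-fold, and in other cells (1) 2 at the lower fold limit and 0 at 2-fold, without the deepest barcodes or at resolution 1.0. Of the pathway genes (7), 16 were called at the lower fold limit, 2 at 2-fold and 3 with a minimum of 50 CPM. Unthinned shares of cells lay apart between doses for 8 genes, against 0.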
